A study of Hydra vulgaris with 113 samples.

Results

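Sox motifs are the DNA words bound by the Sox branch of the high-mobility-group (HMG) box transcription factors. Their accessibility was followed in regenerating Hydra vulgaris, a freshwater polyp, by ATAC-seq, which marks open chromatin with a transposase. The motifs were taken by name from the motif scores of the study: all those whose name starts with Sox and whose family tag is HMG alone. This gave 7 of 332 motifs, namely Sox2(HMG), Sox3(HMG), Sox4(HMG), Sox6(HMG), Sox9(HMG), Sox10(HMG) and Sox15(HMG). The 71 ATAC-seq libraries came from polyps of strain 105 that had been cut in the middle of the body column, and each library was made from 15 pooled wound tips and about 50000 nuclei. Tips that would form a head and tips that would form a foot were collected at 0, 3, 8 and 12 h after amputation. They were either untreated or kept in 5 µM iCRT14, a small molecule that blocks the binding of β-catenin to TCF, the last step of canonical Wnt signalling. The inhibitor was given for 2 h before the cut and then until collection, so that the tips taken at 0, 3, 8 and 12 h had been exposed for 2, 5, 10 and 14 h. A vehicle control is not named in the labels. Untreated groups held 5 libraries per side at 0, 8 and 12 h and 3 per side at 3 h. In iCRT14 there were 4 head and 4 foot libraries at 0 h, 4 and 5 at 3 h, 5 and 4 at 8 h, and 4 and 5 at 12 h. All groups share the amputation, and no uncut polyps were among them. The study also holds 42 RNA-seq libraries, which were not used here.

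Sox proteins bind the minor groove of DNA through the HMG box, bend it, and recognise a short core that is much like that of the TCF/LEF factors, which carry the same kind of domain. In vertebrates they keep stem cells and progenitors in their state or drive them into lineages, often together with a partner factor on a neighbouring site. The motifs used here are models of the Homer collection, most of them named after chromatin immunoprecipitation in mammalian cells, so that a name marks a DNA word and not a Hydra protein. Sox2 maintains pluripotent and neural stem cells in mouse and human, and Sox3, of the same subgroup, acts in neural progenitors. Sox4 acts in vertebrate progenitors and in lymphocyte development, and its motif is named after mouse pro-B cells. Sox6 acts in mouse muscle and cartilage, Sox9 in cartilage and testis formation, and Sox10 in neural crest and glia. The Sox10(HMG) name itself lists an experiment labelled Sox3 in sciatic nerve. Sox15 is related to the Sox2 subgroup. Because the 7 motifs share their core, the same peaks can count for several of them and they are not independent measurements.

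Each library has 1 deviation score per motif. A score above 0 stands for peaks with the motif being more accessible than in the other libraries of the same table, and a score below 0 for less accessible ones. The score therefore says nothing about absolute accessibility, and its scale is not stated. Since each library is a mixture of all cells of the tip, a shift in cell types and a change of accessibility within cells cannot be told apart. The libraries held 4.73 to 42.3 M counts in peaks (median 13.6 M), and the depth moved with time. Median depth in untreated head tips was 26.4, 37.6, 15.9 and 8.62 M counts at 0, 3, 8 and 12 h, and in untreated foot tips it was 25.5, 36.4, 16.2 and 9.53 M. In iCRT14 it was 19.3, 11.1, 7.82 and 12.3 M in head and 15.8, 10.7, 8.55 and 11.2 M in foot tips. Differences between groups were tested with limma on all motifs and all 71 libraries, with p-values adjusted by Benjamini-Hochberg over the 332 motifs. A motif was called at an adjusted p below 0.05.

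Sox4(HMG) had its highest scores in untreated head tips at 12 h and its lowest at 3 h on both sides. In untreated head tips the 5 libraries at 0 h scored 0.16, -0.953, -0.195, -0.428 and 0.118, and the 3 libraries at 3 h scored -1.97, -2.92 and -2.47. At 8 h they scored 0.184, -0.444, -0.322, 0.319 and -0.645, and at 12 h 3.47, 3.92, 4.70, 3.84 and 4.07. The 3 h libraries thus lay below and the 12 h libraries above all other untreated head libraries, while those of 0 h and 8 h overlapped. In untreated foot tips the scores were 0.687, 0.963, 0.687, 0.248 and 0.825 at 0 h, -1.53, -1.80 and -1.35 at 3 h, 1.99, 1.76, 1.30, 1.78 and 2.74 at 8 h, and 2.68, 3.21, 1.82, 2.47 and 3.21 at 12 h. The foot series fell and recovered as well, but it passed its starting level already at 8 h, and its 8 h and 12 h libraries overlapped.

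With iCRT14 the late scores of Sox4(HMG) stayed near or below 0 in head tips. The head libraries in the inhibitor scored 1.06, 1.30, 1.02 and 0.197 at 0 h and -2.75, -2.33, -2.81 and -2.14 at 3 h. They scored -1.82, -1.26, -2.48, -1.57 and 0.274 at 8 h and 0.727, 0.0351, -0.676 and -0.398 at 12 h. All 4 head libraries at 12 h lay below all 5 untreated ones. The foot libraries in the inhibitor scored 0.390, 2.97, 2.38 and 0.642 at 0 h and -1.49, -1.03, -1.64, -2.12 and -2.18 at 3 h. They scored -0.650, -0.900, -0.397 and -0.305 at 8 h and 0.16, 0.419, 0.783, 2.15 and 1.23 at 12 h. At 0 h the foot libraries in iCRT14 spread widely, with 2 of them below 1 and 2 above 2, and at 8 h all 4 lay below every untreated foot library.

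**Figure D1:**
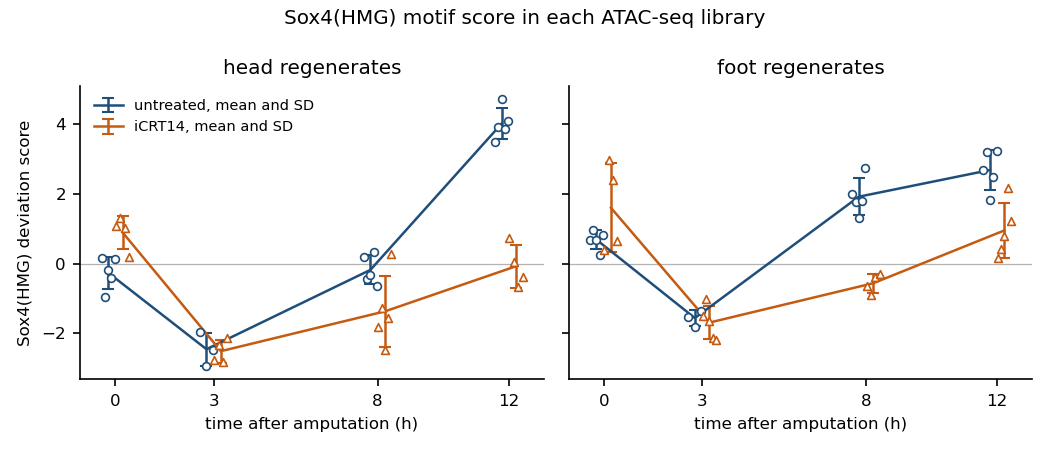
Sox4(HMG) deviation score (vertical axis) of each ATAC-seq library against time after amputation in hours, in head tips (left) and foot tips (right). Circles are untreated and triangles iCRT14 libraries, and lines join the group means with bars of 1 SD. The untreated head libraries climb from -0.181 ± 0.415 at 8 h to 4.00 ± 0.448 at 12 h, while the iCRT14 head libraries reach -0.0776 ± 0.611.

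Ordered by mean score, the 16 groups ran from untreated head at 12 h (4.00 ± 0.448, SD, n = 5) through untreated foot at 12 h (2.68 ± 0.580, n = 5) and at 8 h (1.91 ± 0.525, n = 5) to head in iCRT14 at 3 h (-2.51 ± 0.326, n = 4). Of the 15 pairs of neighbours in this order, only the first pair had ranges that did not overlap. The 4 groups at 3 h took the 4 lowest places whatever the side or treatment. The group means of Sox4(HMG) spanned 6.51 score units, against a median SD within groups of 0.475.

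Most Sox motifs fell from 0 h to 3 h on both sides and in both treatments. At 3 h, 5 of the 7 Sox motifs in untreated head tips had fallen against 0 h, and none had risen. The share of all motifs that changed in that comparison was 59.0%, and 25.3% fell. The median difference was -2.06 over the Sox motifs and 0.114 over all motifs. In untreated foot tips 6 of 7 fell, where 66.0% of all motifs changed and 28.9% fell, and the medians were -2.40 and 0.355. Sox4(HMG) fell by 2.19 in head tips (SE 0.446, limma, adjusted p = 2.10e-05) and by 2.24 in foot tips (SE 0.446, adjusted p = 1.33e-05). The largest drop in both was that of Sox10(HMG), with -3.15 in head (SE 0.450, adjusted p = 1.41e-08) and -3.73 in foot tips (SE 0.450, adjusted p = 1.28e-10). In the table of untreated libraries alone, the drop of Sox2(HMG) in head tips, -2.06 here, was -0.638 (adjusted p = 0.251). Sox6(HMG) was the member that did not pass the test on either side, with -0.549 in head and 0.71 in foot tips. Sox3(HMG) in head tips, at -0.963 (adjusted p = 0.0713), did not pass either.

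The size of this step was not compared between treatments by a test. In iCRT14 head tips 6 of 7 Sox motifs fell from 0 h to 3 h, against 27.1% of all motifs falling and 68.4% changing. In iCRT14 foot tips 6 of 7 fell, against 28.3% falling and 65.7% changing, and in each case Sox6(HMG) was the exception. Sox4(HMG) fell by 3.40 in head (adjusted p = 8.47e-10) and by 3.29 in foot tips (adjusted p = 4.96e-10). The largest drop was that of Sox2(HMG), with -5.32 in head (SE 0.533, adjusted p = 1.05e-12) and -3.76 in foot tips (SE 0.506, adjusted p = 3.41e-09). At 3 h no Sox motif passed the test between head and foot tips, untreated or in iCRT14 (limma, 0 of 7 in each), where 4.52% and 0.00% of all motifs did. At an unadjusted p below 0.05, 1 and 2 of the 7 passed. The difference of Sox4(HMG) between the sides at 3 h was -0.892 without (SE 0.498, adjusted p = 0.336) and -0.817 with the inhibitor (SE 0.409, adjusted p = 0.80), and the 3 h libraries of the sides did not overlap in untreated tips.

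The sides were next compared at the time of the cut. Of the 7 motifs, 1 differed between untreated head and foot tips at 0 h, where 6.93% of all motifs did and 5.42% were higher in head tips. This was Sox6(HMG), higher in head tips by 2.13 (SE 0.464, adjusted p = 0.00186). Its head libraries scored -0.0721, -0.517, -1.22, -0.289 and -1.10 and its foot libraries -2.39, -2.84, -2.75, -3.13 and -2.73, so that the sides did not overlap. Sox4(HMG) was lower in head tips by a difference of -0.942 (SE 0.386), with an adjusted p of 0.140, although the libraries of the sides did not overlap. At this time the deviations of head and foot libraries with the same replicate number correlated, with r from 0.111 to 0.663. Of the 5 head libraries, 3 correlated best with the foot library of their own number. In the paired fit of these libraries, Sox4(HMG) at adjusted p = 0.00249 and Sox3(HMG) at -0.635 (SE 0.236, adjusted p = 0.0393) passed as well.

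At 8 h the differences between the sides had different signs among the Sox motifs. Untreated head and foot tips differed in 4 of 7 Sox motifs, 1 higher and 3 lower in head tips, against 58.4% of all motifs, 26.8% of them higher and 31.6% lower. The share of Sox motifs that differed was thus close to that of all 332 motifs, and nothing is read from the count. Sox4(HMG) was lower in head tips by 2.09 score units (difference -2.09, SE 0.386, adjusted p = 1.05e-05), Sox10(HMG) differed by -1.90 (SE 0.390, adjusted p = 4.61e-05) and Sox15(HMG) by -1.51 (SE 0.391, adjusted p = 8.66e-04). Sox2(HMG) had the largest difference and the opposite sign, 2.35 higher in head tips (SE 0.477, adjusted p = 3.97e-05). Its head libraries scored 3.26, 1.47, 3.01, 2.14 and 1.56 and its foot libraries -0.402, 0.212, -1.07, 0.698 and 0.246. The sides did not overlap in Sox2(HMG), Sox4(HMG) or Sox10(HMG), and overlapped in Sox15(HMG). In the table of untreated libraries the Sox15(HMG) difference was -0.828 (adjusted p = 0.0796). The median difference of the 7 was -0.314, and that of all motifs -0.0295.

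Against 0 h, Sox4(HMG) at 8 h was 1.23 higher in foot tips (SE 0.386, adjusted p = 0.00650, and 0.0556 with ranks within a library), while in head tips the difference was 0.0781 (SE 0.386, adjusted p = 0.869). Whether the difference between the sides had changed from 0 h was tested as a difference of differences, which passed for 4 of 7 Sox motifs at 8 h and for 32.2% of all motifs. These were Sox6(HMG) with -2.44 (SE 0.656, adjusted p = 0.00327), Sox2(HMG) with 2.31, Sox15(HMG) with -1.77 and Sox10(HMG) with -1.39. In the table of untreated libraries the Sox15(HMG) value was -1.03 (adjusted p = 0.161) and the Sox10(HMG) value -1.06 (adjusted p = 0.0799). The Sox10(HMG) call, at an adjusted p of 0.0453, was lost in 11 of the 20 fits that left out a library, namely without head replicate 1, 3 or 5 or foot replicate 3 or 4 at 0 h, and without head replicate 2, 3 or 5 or foot replicate 1, 2 or 4 at 8 h, with values from -1.40 to -1.14. For Sox4(HMG) it was -1.15 (SE 0.546, adjusted p = 0.0950). It passed when only the groups compared were fitted (adjusted p = 0.0371) and in the table of untreated libraries (-1.45, adjusted p = 0.0169). At 3 h the same test passed for 0 of 7 Sox motifs and 0.00% of all motifs (limma, and 0 of 7 at an unadjusted p below 0.05), with 0.050 for Sox4(HMG).

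**Figure D2:**
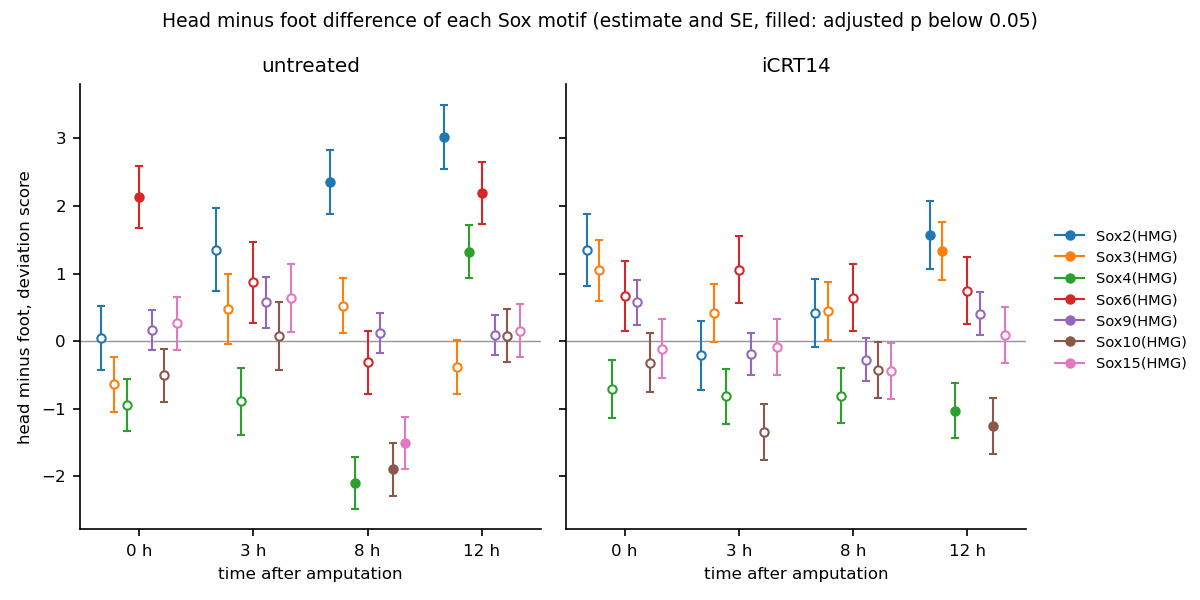
Head minus foot difference in deviation score (vertical axis) of each Sox motif at each time after amputation, in untreated tips (left) and in iCRT14 (right). Points are limma estimates with bars of 1 SE, and filled points have an adjusted p below 0.05. In untreated tips Sox4(HMG) lies at -2.09 at 8 h and at 1.33 at 12 h, whereas Sox2(HMG) is positive at both times.

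Between 8 h and 12 h the Sox motifs rose in untreated head tips. In this step 5 of 7 rose and none fell, against 19.9% of all motifs rising and 39.2% changing, and the median was 1.92 over the Sox motifs and -0.0329 over all motifs. Sox4(HMG) rose most of the 7, by 4.18 (SE 0.386, adjusted p = 2.43e-13). It had the smallest p-value of all 332 motifs and the third largest rise, and no 12 h library overlapped those of 8 h. Sox2(HMG) rose by 3.17, Sox6(HMG) by 2.87, and Sox15(HMG) and Sox10(HMG) by 1.92 each. The differences of Sox3(HMG) and Sox9(HMG) were 0.499 and 0.382 and did not pass. Median depth fell from 15.9 to 8.62 M counts over the same step. With depth as a covariate the Sox4(HMG) difference was 4.50 (adjusted p = 3.44e-12).

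From 3 h to 8 h Sox motifs rose on both untreated sides, and the difference between the sides in this step was not tested. In foot tips 6 of 7 rose, against 29.2% of all motifs rising and 64.5% changing, led by Sox15(HMG) with 4.43 (SE 0.451, adjusted p = 1.17e-12). Sox4(HMG) rose by 3.47 (SE 0.446, adjusted p = 1.28e-09). In head tips 5 of 7 rose in that step, against 22.0% rising and 51.8% changing, led by Sox2(HMG) with 4.79 (SE 0.551, adjusted p = 6.55e-11), and Sox4(HMG) rose by 2.27 (SE 0.446, adjusted p = 2.01e-05). From 8 h to 12 h 2 of 7 rose in foot tips, against 18.1% rising and 34.6% changing. These were Sox2(HMG) with 2.50 (SE 0.477, adjusted p = 3.10e-05) and Sox3(HMG) with 1.40. Median depth fell from 16.2 to 9.53 M counts in this step, and with depth as a covariate the Sox3(HMG) value was 1.15 (adjusted p = 0.0503). The Sox4(HMG) difference in this step was 0.763 (SE 0.386, adjusted p = 0.126).

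At 12 h Sox4(HMG) was higher in head than in foot tips, the opposite order to 8 h. The difference was 1.33 (SE 0.386, adjusted p = 0.00415), and the lowest head library, at 3.47, lay above the highest foot library, at 3.21. In all, 3 of 7 Sox motifs differed between the untreated sides at 12 h and all 3 were higher in head tips, against 23.8% of all motifs higher and 47.3% different. The largest difference was that of Sox2(HMG), 3.02 (SE 0.477, adjusted p = 9.56e-07), with head libraries from 5.09 to 6.20 and foot libraries from 1.54 to 3.34. Sox6(HMG) was higher by 2.19 (SE 0.464, adjusted p = 1.07e-04). The change of side difference from 0 h to 12 h passed for 2 of 7 Sox motifs, against 23.5% of all motifs. It was 2.27 for Sox4(HMG) (SE 0.546, adjusted p = 0.00191) and 2.98 for Sox2(HMG) (SE 0.675, adjusted p = 0.00101). The 12 h side difference of Sox4(HMG) depended on the reference set. In the deposited table that scores the 36 untreated libraries among themselves it was 0.367 (adjusted p = 0.407), and with scores turned to ranks within a library it was 16.4 ranks (adjusted p = 0.628). The Sox2(HMG) difference at 12 h was 25.4 ranks (adjusted p = 0.479), and its change from 0 h was 14.8 ranks (adjusted p = 0.810).

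In that table of untreated libraries the 12 h head group had a Sox4(HMG) mean of 3.03 ± 0.328 and the 12 h foot group 2.66 ± 0.652 (SD, n = 5 each), and the ranges overlapped. The lower head score at 8 h was kept, with a difference of -2.66 (adjusted p = 1.47e-07). The rise from 8 h to 12 h in head tips was kept too, at 3.46 (adjusted p = 1.81e-09), as was the change of side difference from 0 h to 12 h, at 1.57 (adjusted p = 0.0147).

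Against 0 h, 6 of 7 Sox motifs had changed by 12 h in untreated head tips, 5 of them upwards, where 68.4% of all motifs changed and 35.2% rose. Sox4(HMG) was 4.26 higher (SE 0.386, adjusted p = 6.71e-15), and Sox2(HMG) showed the largest difference with 5.90 (SE 0.477, adjusted p = 6.70e-17). In foot tips 6 of 7 had changed, 5 of them upwards, where 63.3% of all motifs changed and 36.1% rose. Sox4(HMG) was 1.99 higher (SE 0.386, adjusted p = 1.16e-05), and the largest difference was 3.27 for Sox6(HMG) (SE 0.464, adjusted p = 2.14e-08). On both sides Sox9(HMG) was the member that was lower. The Sox3(HMG) calls depended on the settings. Its difference in head tips, 1.15 (adjusted p = 0.0108) here, was 0.642 (adjusted p = 0.342) with depth as a covariate and 0.609 (adjusted p = 0.102) in the table of untreated libraries, while median depth fell from 26.4 to 8.62 M counts. In foot tips its difference of 0.893 (adjusted p = 0.0499) became 0.488 (adjusted p = 0.446) and 0.515 (adjusted p = 0.165), while median depth fell from 25.5 to 9.53 M counts. The head call was also lost without head replicate 4 at 0 h (0.902, adjusted p = 0.0561). At 8 h against 0 h, 3 of 7 had changed in head tips, where 58.1% of all motifs had, led by Sox2(HMG) with 2.73 (SE 0.477, adjusted p = 1.61e-06). In foot tips 4 of 7 had, where 53.9% of all motifs had, led by Sox6(HMG) with 2.90 (SE 0.464, adjusted p = 5.99e-07).

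**Figure D3:**
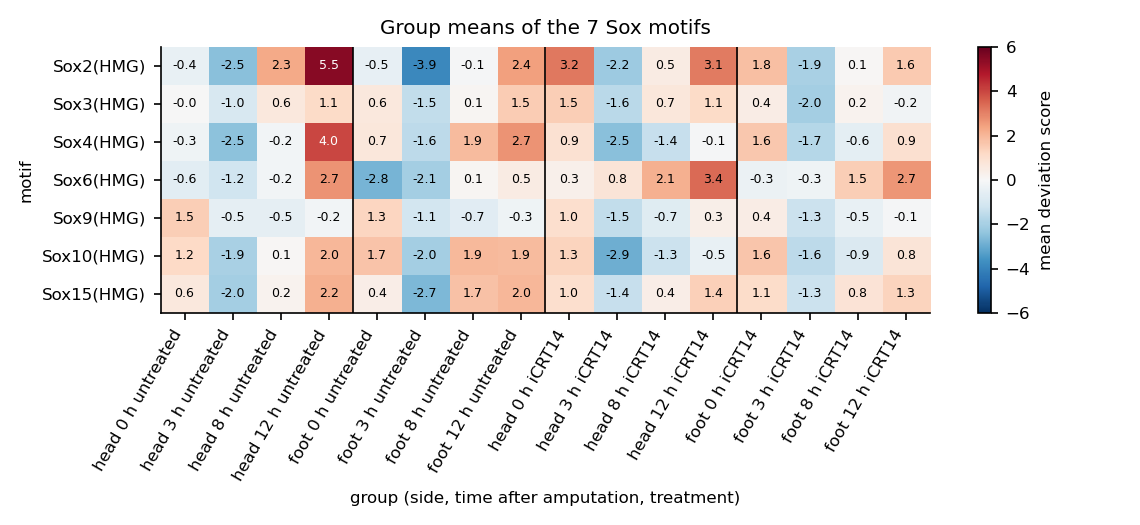
Mean deviation score of each of the 7 Sox motifs (rows) in each of the 16 groups (columns, named by side, time and treatment), with the mean printed in each cell to 1 decimal. Red is above and blue below 0. The 4 columns at 3 h hold the 4 lowest means of Sox2(HMG), Sox3(HMG), Sox4(HMG), Sox10(HMG) and Sox15(HMG), and the highest mean is 5.46 for Sox2(HMG) in untreated head tips at 12 h.

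The Sox4(HMG) difference between iCRT14 and untreated head tips was positive at 0 h and negative at 8 h and 12 h. In head tips at 0 h, after 2 h in iCRT14, Sox4(HMG) was 1.15 higher than in untreated tips (SE 0.409, adjusted p = 0.0138). This call was lost without head iCRT14 replicate 2 (1.02, adjusted p = 0.0510) and with scores scaled per library (0.602, adjusted p = 0.0533). At 3 h the difference was -0.0557 (adjusted p = 0.936). At 8 h it was -1.19 (SE 0.386, adjusted p = 0.00863), and the call was lost without head iCRT14 replicate 3 (-0.911, adjusted p = 0.0523) and with depth as a covariate (-0.773, adjusted p = 0.212). Median depth was 7.82 M counts in iCRT14 and 15.9 M in untreated head tips at 8 h. When only these groups were fitted the adjusted p was 0.0975.

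At 12 h Sox4(HMG) in head tips was lower in iCRT14 (difference -4.08, SE 0.409, adjusted p = 6.63e-12). This was the most negative difference and the smallest p-value among the 332 motifs. Median depth was 12.3 M counts in iCRT14 and 8.62 M untreated, and the value with depth as a covariate was -4.22 (adjusted p = 5.72e-12). Leaving out any single library gave -4.35 to -3.88. Of the 7 Sox motifs, 3 were lower and none higher, against 15.4% of all motifs lower and 38.3% changed. Beside Sox4(HMG) these were Sox10(HMG) with -2.44 (SE 0.413, adjusted p = 4.04e-06) and Sox2(HMG) with -2.33 (SE 0.506, adjusted p = 1.89e-04). The median over the 7 was -0.715, and over all motifs 0.172.

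**Figure D4:**
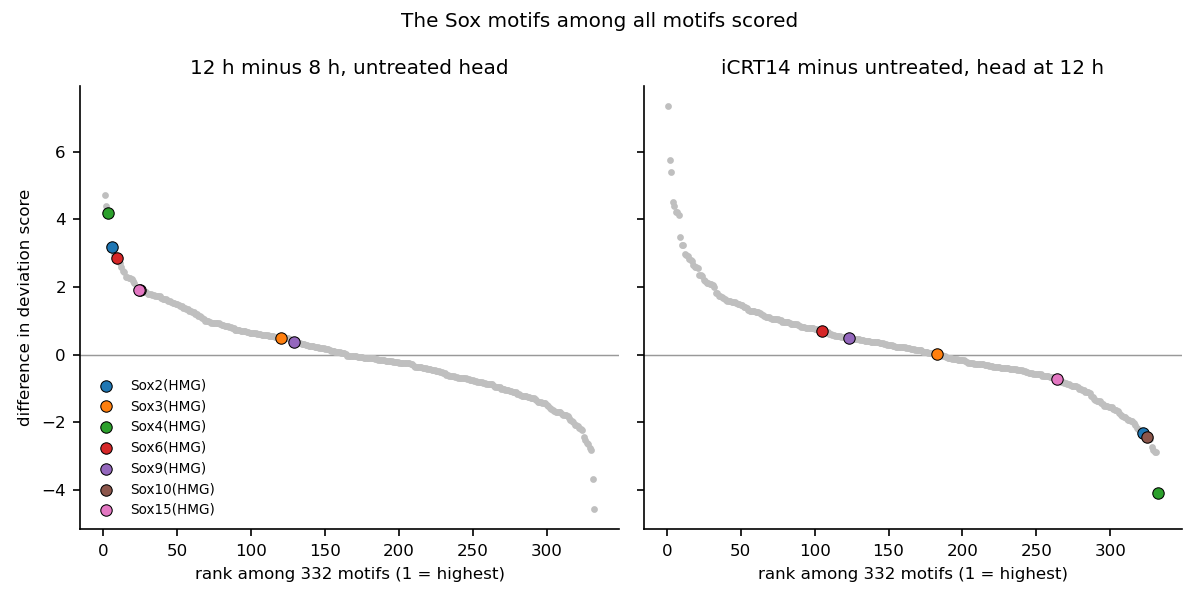
Difference in deviation score (vertical axis) of all 332 motifs ranked from highest to lowest (horizontal axis), for 12 h minus 8 h in untreated head tips (left) and for iCRT14 minus untreated head tips at 12 h (right). Grey points are all motifs and coloured points the Sox motifs, and on the left Sox10(HMG) lies under Sox15(HMG) at 1.92. Sox4(HMG) is the third highest on the left and the lowest on the right, at -4.08.

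In foot tips the Sox4(HMG) differences between iCRT14 and untreated libraries passed at 8 h and 12 h. The Sox4(HMG) difference was 0.914 at 0 h (SE 0.409, adjusted p = 0.0552) and -0.130 at 3 h (SE 0.446, adjusted p = 0.842). It was -2.48 at 8 h (SE 0.409, adjusted p = 9.13e-07) and -1.73 at 12 h (SE 0.386, adjusted p = 2.72e-04). The 0 h difference passed without foot iCRT14 replicate 1 (1.32, adjusted p = 0.00911) or replicate 4 (1.23, adjusted p = 0.0150), the libraries with the lowest scores of that group, and with depth as a covariate (1.14, adjusted p = 0.0255). The difference between the sides in their response to iCRT14 passed for Sox4(HMG) at 12 h, at -2.35 (SE 0.563, adjusted p = 0.00631), so that the loss was larger in head tips. It was the only one of 7 Sox motifs to pass, against 8.13% of all motifs, and with ranks within a library its adjusted p was 0.0588. At an unadjusted p below 0.05 (limma), 5 of the 7 Sox motifs passed at 12 h, and 72 of all motifs. At 8 h the Sox4(HMG) value was 1.29 (SE 0.563, adjusted p = 0.139), and there limma called 0 of 7, against 8.43% of all motifs, with 3 of 7 at an unadjusted p below 0.05. At 0 h and 3 h 0 of 7 passed, against 0.00% and 0.904% of all motifs, with 2 and 1 of 7 at an unadjusted p below 0.05. The Sox4(HMG) values were 0.238 and 0.0744.

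Over the 7 motifs the effect of iCRT14 was mixed. In head tips 3 of 7 were higher at 0 h (55.7% of all motifs changed and 28.0% were higher), led by Sox2(HMG) with 3.61 (SE 0.506, adjusted p = 2.08e-08). At 3 h 2 of 7 changed (41.6% of all motifs), led by Sox6(HMG) with 1.97 (SE 0.560, adjusted p = 0.00400). The other was Sox9(HMG) with -0.922 (adjusted p = 0.0316), which was -0.916 (adjusted p = 0.147) with depth as a covariate, with median depths of 11.1 and 37.6 M counts. It was also lost without untreated replicate 2 (-0.588) or iCRT14 replicate 3 (-0.687), with ranks within a library (adjusted p = 0.0825) and with only these groups fitted (adjusted p = 0.148). At 8 h 4 of 7 changed (53.6% of all motifs), 3 of them downwards (23.5% of all motifs), with the largest difference for Sox6(HMG), 2.30 higher (SE 0.464, adjusted p = 4.11e-05). With only these groups fitted, the adjusted p was 0.0685 for Sox2(HMG) and 0.0863 for Sox10(HMG), which then did not pass. In foot tips 3 of 7 changed at 0 h (52.4% of all motifs), 3 at 3 h (39.8%), 3 at 8 h (52.7%) and 4 at 12 h (35.2%). The members with the largest differences were Sox6(HMG) at 0 h, at 2.43 (SE 0.492, adjusted p = 4.15e-05), and Sox2(HMG) at 3 h, at 1.91 (SE 0.551, adjusted p = 0.00428). The latter was 1.72 (adjusted p = 0.0968) with depth as a covariate, with median depths of 10.7 and 36.4 M counts, and had an adjusted p of 0.586 with ranks within a library. At 8 h it was Sox10(HMG), at -2.81 (SE 0.413, adjusted p = 6.55e-08), and at 12 h Sox6(HMG), at 2.16 (SE 0.464, adjusted p = 1.66e-04). Except in foot tips at 12 h, the shares of Sox motifs that changed were near or below those of all motifs, and nothing is read from these counts.

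Within the inhibitor, Sox motifs passed the test between the sides at 12 h but not earlier in the fit of all libraries. Head and foot tips in iCRT14 differed in 0 of 7 Sox motifs at 0 h and at 8 h (limma), where 3.92% and 15.4% of all motifs did, with 2 and 0 of 7 at an unadjusted p below 0.05. In the paired fit at 0 h, where the replicate numbers pair the libraries too, Sox2(HMG) passed with 1.35 (SE 0.374, adjusted p = 0.0336). The Sox4(HMG) differences were -0.703 at 0 h (SE 0.432, adjusted p = 0.313) and -0.806 at 8 h (SE 0.409, adjusted p = 0.161). The latter passed without head replicate 5 (-1.22, adjusted p = 0.0286), a library that scored above the other 4 of its group in Sox2(HMG), Sox4(HMG), Sox10(HMG) and Sox15(HMG). At 12 h 4 of 7 differed, against 39.5% of all motifs. The share of all motifs was also highest at this time, and nothing is read from these counts. Sox2(HMG) was 1.57 higher in head tips (SE 0.506, adjusted p = 0.0107) and Sox3(HMG) 1.34 higher (SE 0.430, adjusted p = 0.0107). Sox10(HMG) was lower, at -1.26 (SE 0.413, adjusted p = 0.0124), and so was Sox4(HMG), at -1.03 (SE 0.409, adjusted p = 0.0400).

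The iCRT14 side difference of Sox4(HMG) at 12 h thus had the sign opposite to that in untreated tips, but the libraries overlapped and the call was weak. The untreated difference was not firm either. As given above, it did not pass when the untreated libraries were scored among themselves or with ranks within a library. The iCRT14 call of Sox4(HMG) was lost without head replicate 2, 3 or 4 (-1.06, -0.826 and -0.919) and without foot replicate 4 or 5 (-0.725 and -0.956), with adjusted p-values from 0.0555 to 0.169. The Sox3(HMG) call was lost without head replicate 1 (0.703, adjusted p = 0.185). The Sox10(HMG) call was lost without head replicate 3 or 4 (-1.03 and -1.04) or foot replicate 4 (-0.993).

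From 3 h to 8 h Sox motifs rose in iCRT14 too. In this step 6 of 7 rose in head tips, against 11.7% of all motifs rising and 22.9% changing, and 6 of 7 in foot tips, against 21.1% rising and 37.7% changing. The median differences were 1.62 and 1.75 over the Sox motifs, and -0.0413 and 0.0734 over all motifs. The largest was 2.66 for Sox2(HMG) in head (SE 0.506, adjusted p = 5.35e-05) and 2.24 for Sox3(HMG) in foot tips (SE 0.430, adjusted p = 4.75e-05). With only the groups of this step fitted, Sox4(HMG), Sox6(HMG), Sox10(HMG) and Sox15(HMG) did not pass in head tips, with adjusted p-values of 0.153, 0.0752, 0.0610 and 0.0575. With depth as a covariate Sox6(HMG) had an adjusted p of 0.0506, and median depth fell from 11.1 to 7.82 M counts. From 8 h to 12 h 3 of 7 rose on each side. In head tips 4.52% of all motifs rose and 8.13% changed, and in foot tips 9.64% rose and 22.9% changed. Sox2(HMG) led in head with 2.63 (SE 0.506, adjusted p = 1.64e-04), and Sox10(HMG) led in foot tips with 1.65 (SE 0.413, adjusted p = 0.00229). The other head motifs were Sox4(HMG) with 1.29 (adjusted p = 0.0345) and Sox9(HMG) with 1.05 (adjusted p = 0.0190). With depth as a covariate these became 1.05 (adjusted p = 0.185) and 1.05 (adjusted p = 0.0614), and median depth rose from 7.82 to 12.3 M counts. With only the groups of this step fitted, Sox2(HMG), Sox4(HMG) and Sox9(HMG) did not pass, with adjusted p-values of 0.0637, 0.190 and 0.221. The Sox9(HMG) call was lost without replicate 5 at 8 h (0.882, adjusted p = 0.0593) and without replicate 1 at 12 h (0.561, adjusted p = 0.222). In foot tips the Sox2(HMG) call was lost without replicate 1 or 3 at 8 h (1.27 and 1.47) and without replicate 4 or 5 at 12 h (1.38 and 1.19).

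For Sox4(HMG) in iCRT14 these steps were 1.14 and 1.29 in head tips (SE 0.409 each, adjusted p = 0.0380 and 0.0345) and 1.13 and 1.51 in foot tips (SE 0.409 each, adjusted p = 0.0238 and 0.00423). The 2 head steps and the first foot step each lost the call in 4 or 5 of the 9 fits that left out a library, with adjusted p-values up to 0.187 for the first head step, 0.136 for the second and 0.0660 in foot tips. Against 0 h in iCRT14, Sox4(HMG) was 2.26 units lower at 8 h in head tips (difference -2.26, adjusted p = 2.90e-06) and 2.16 lower in foot tips (difference -2.16, adjusted p = 1.65e-05). Of the 7 motifs 5 had changed on each side at 8 h, against 67.8% of all motifs in head and 61.7% in foot tips, with the largest differences for Sox2(HMG) in head (-2.66, SE 0.506, adjusted p = 7.26e-06) and Sox10(HMG) in foot tips (-2.51, SE 0.436, adjusted p = 1.18e-06). At 12 h the Sox4(HMG) differences from 0 h were -0.971 in head (SE 0.432, adjusted p = 0.0436, lost in 6 of 8 fits that left out a library and, at -0.764, adjusted p = 0.134, with depth as a covariate) and -0.648 in foot tips (SE 0.409, adjusted p = 0.157). At 12 h 3 of 7 had changed in head (64.8% of all motifs) and 1 in foot tips (64.2%), with the largest difference for Sox6(HMG) on both sides, 3.07 (SE 0.519, adjusted p = 7.35e-07) and 3.00 (SE 0.492, adjusted p = 4.27e-07).

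**Figure D5:**
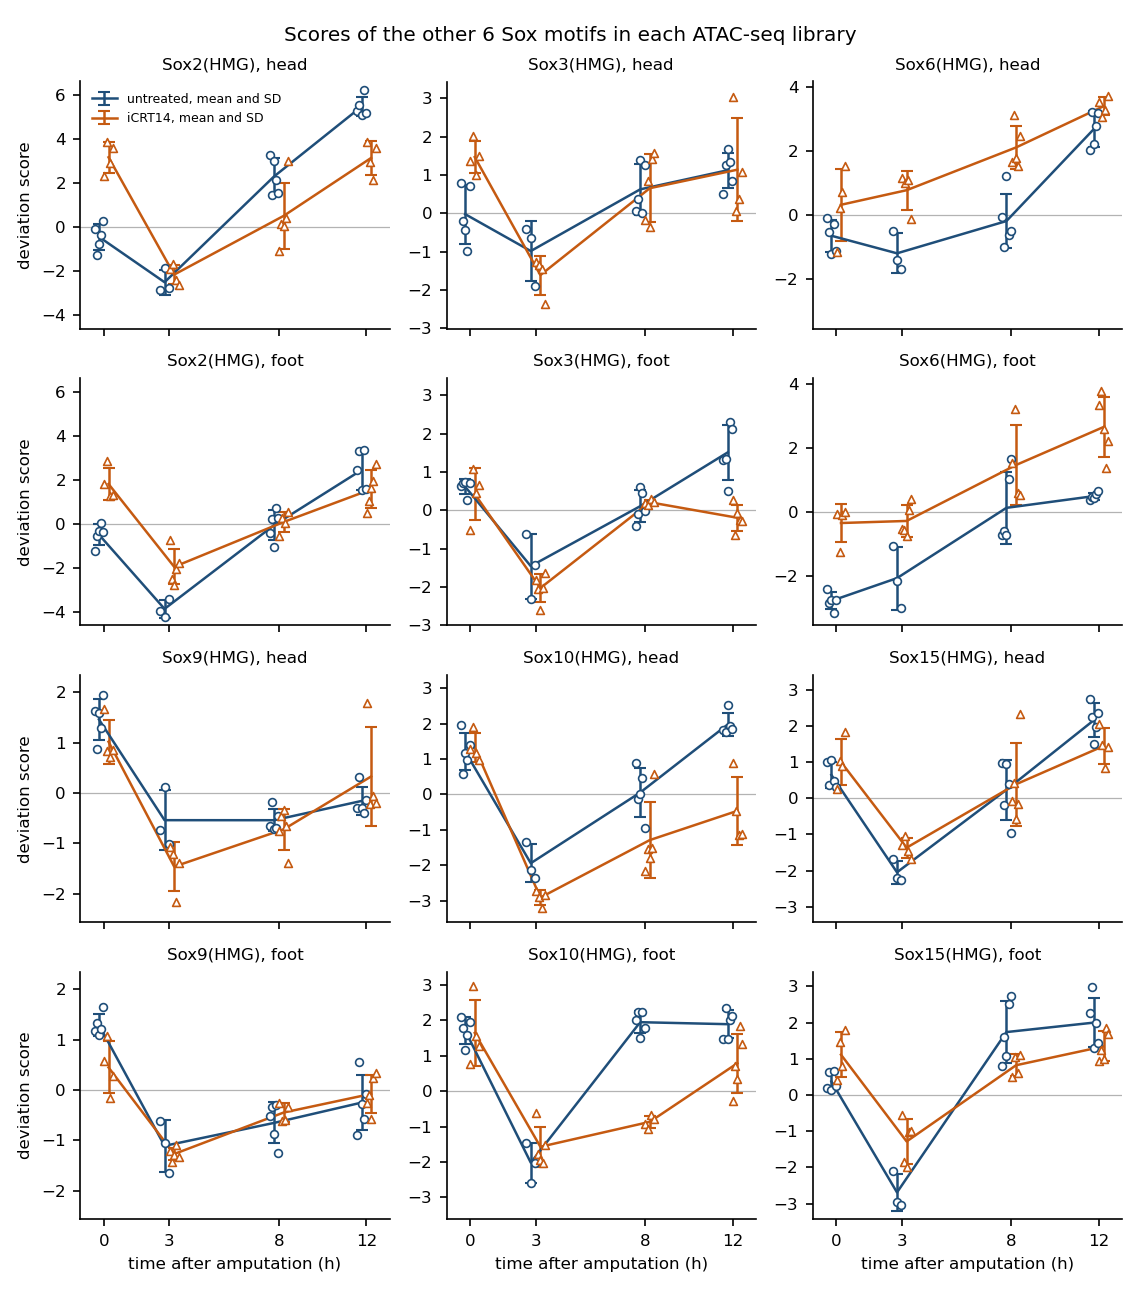
Deviation scores (vertical axes, scaled per motif) of Sox2(HMG), Sox3(HMG), Sox6(HMG), Sox9(HMG), Sox10(HMG) and Sox15(HMG) in each library against time after amputation in hours, with head tips above foot tips. Circles are untreated and triangles iCRT14 libraries, and lines join group means with bars of 1 SD. Sox6(HMG) has no drop at 3 h that passed the test, and Sox9(HMG) ends below its level at 0 h in untreated tips.

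Of the Sox motifs, Sox2(HMG) had the widest range. Its group means ran from -3.86 ± 0.416 (untreated foot at 3 h, n = 3) to 5.46 ± 0.447 (untreated head at 12 h, n = 5). The untreated head libraries at 12 h scored 5.28, 5.55, 5.09, 6.20 and 5.19, above all other libraries in the study. The untreated foot libraries at 12 h scored 2.44, 3.31, 1.54, 3.34 and 1.57. At 8 h in foot tips it had a mean of -0.0631 ± 0.685, and the difference from 0 h did not pass (0.425, adjusted p = 0.453). In iCRT14 it started high, with 2.31, 3.86, 2.88 and 3.60 in head tips at 0 h, all above the untreated head libraries of that time, whose highest was 0.255. At 12 h the iCRT14 head libraries scored 3.84, 2.94, 2.15 and 3.59, close to their own 0 h level (difference -0.0293, SE 0.533, adjusted p = 0.965). With ranks within a library, the Sox2(HMG) difference from 8 h to 12 h in untreated head tips was 25.6 ranks (adjusted p = 0.444), and that between iCRT14 and untreated head tips at 12 h was -21.2 ranks (adjusted p = 0.624).

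Sox3(HMG) moved less. Its group means ran from -2.03 ± 0.362 (foot in iCRT14 at 3 h, n = 5) to 1.51 ± 0.721 (untreated foot at 12 h, n = 5). Its 12 h foot libraries scored 1.31, 1.34, 0.497, 2.30 and 2.11 untreated and 0.273, -0.651, -0.0675, -0.255 and -0.273 in iCRT14. The iCRT14 libraries all lay below the untreated ones, with a difference of -1.70 (SE 0.406, adjusted p = 5.83e-04). In head tips at 12 h the means were 1.13 ± 0.452 and 1.14 ± 1.34, and the difference was 0.0141 (SE 0.430, adjusted p = 0.974). The iCRT14 head libraries ran from 0.0727 to 3.04 with a median of 0.726. The untreated ones ran from 0.511 to 1.67 with a median of 1.27. The test of whether these responses differed between the sides gave 1.72 (SE 0.592, adjusted p = 0.0602). The rise of Sox3(HMG) from 0 h to 12 h in untreated foot tips was at the threshold (0.893, adjusted p = 0.0499) and was lost in 9 of 10 fits that left out a library.

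Over the 16 group means, Pearson's r of Sox6(HMG) with the other Sox motifs ran from -0.128 for Sox9(HMG) to 0.618 for Sox2(HMG). Sox6(HMG) was the only Sox motif with no passing drop from 0 h to 3 h on either side or in either treatment. In untreated foot tips its mean climbed from -2.77 ± 0.267 at 0 h to -2.06 ± 0.979 at 3 h, 0.132 ± 1.13 at 8 h and 0.498 ± 0.113 at 12 h. The 12 h libraries scored 0.370, 0.462, 0.446, 0.551 and 0.663, the tightest group of this motif. In untreated head tips it stayed at -0.181 ± 0.853 at 8 h and reached 2.02, 3.24, 2.21, 2.79 and 3.20 at 12 h. Unlike Sox4(HMG), Sox6(HMG) was higher in iCRT14 wherever its test passed, at 3 h and 8 h in head tips and at all 4 times in foot tips. In foot tips at 12 h the iCRT14 libraries scored 3.33, 3.77, 2.59, 1.37 and 2.21, all above the untreated ones. The foot call at 3 h was lost without untreated replicate 3 (1.31, adjusted p = 0.0915). The foot call at 8 h was lost without iCRT14 replicate 2 (0.758, adjusted p = 0.213) and without untreated replicate 1, 2 or 3 (1.12 to 1.16). Its highest group mean was 3.40 ± 0.282 in iCRT14 head tips at 12 h (n = 4).

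Sox9(HMG) was highest at the time of the cut. The untreated 0 h libraries scored 1.62, 0.867, 1.59, 1.30 and 1.94 in head and 1.17, 1.34, 1.09, 1.21 and 1.65 in foot tips. Every untreated library of the later times lay below these, from -1.65 to 0.552. Against 0 h the difference at 12 h was -1.62 in head (SE 0.294, adjusted p = 2.25e-06) and -1.54 in foot tips (SE 0.294, adjusted p = 9.04e-06). In iCRT14 the 12 h differences from 0 h were -0.690 (adjusted p = 0.0604) and -0.525 (adjusted p = 0.132) and did not pass. In iCRT14 head tips replicate 1 stood apart at both times. It scored 1.80 at 12 h, against -0.212 to -0.0691 in the others, and 1.66 at 0 h, against 0.711 to 0.859. The iCRT14 minus untreated difference in head tips at 12 h was 0.486 (SE 0.312, limma, adjusted p = 0.224). Whether the change from 0 h differed between treatments was not tested. No side difference of Sox9(HMG) passed the test at any time in either treatment, with values from -0.272 to 0.573.

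Sox10(HMG) followed Sox4(HMG) most closely of the 7. Its untreated foot libraries were back at their starting level by 8 h, with 2.00, 2.23, 1.50, 2.24 and 1.78 against 2.10, 1.80, 1.15, 1.58 and 1.96 at 0 h. The head libraries at 8 h scored 0.882, -0.137, 0.0133, 0.453 and -0.952, below all foot libraries of that time, and at 12 h 1.82, 1.75, 2.53, 1.93 and 1.84. In iCRT14 the foot libraries at 8 h scored -0.933, -1.07, -0.664 and -0.797, all below the untreated ones. At 12 h the iCRT14 head libraries scored 0.880, -0.469, -1.15 and -1.12, all below the untreated head libraries. The iCRT14 difference in foot tips at 12 h, -1.10 (SE 0.390, adjusted p = 0.0201), was lost without untreated replicate 2 (-0.990) and without iCRT14 replicate 1 or 3 (-0.836 and -0.989).

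Sox15(HMG) had its lowest group means at 3 h. Its means in untreated head tips were 0.642 ± 0.358, -2.05 ± 0.313, 0.230 ± 0.820 and 2.15 ± 0.465 at 0, 3, 8 and 12 h. Foot tips without inhibitor had means of 0.376 ± 0.252, -2.69 ± 0.514, 1.74 ± 0.857 and 2.00 ± 0.686. The only passing iCRT14 difference was a higher score in foot tips at 3 h, 1.41 (SE 0.451, adjusted p = 0.00990), with iCRT14 libraries from -1.99 to -0.551 and untreated ones from -3.03 to -2.10. It was lost without untreated replicate 3 (1.24, adjusted p = 0.0596) and with ranks within a library (adjusted p = 0.260). At 12 h in head tips the difference was -0.715 (SE 0.414, adjusted p = 0.176).

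The profiles were compared over the 16 group means, which share libraries and motif words, so that the correlations are given as a description. Over the 21 pairs of Sox motifs Pearson's r ran from -0.128 to 0.907, with a median of 0.666. With Sox4(HMG), r was 0.907 for Sox10(HMG), 0.846 for Sox15(HMG), 0.781 for Sox2(HMG), 0.713 for Sox3(HMG), 0.412 for Sox9(HMG) and 0.266 for Sox6(HMG). Among the 331 other motifs the 5 most like Sox4(HMG) were Gfi1b(Zf) with 0.921, Sox10(HMG), Pax8(Paired,Homeobox) with 0.877, Sox15(HMG) and EBNA1(EBV-virus) with 0.828. The least like it were HIF-1b(HLH) with -0.869 and n-Myc(bHLH) with -0.851.

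The TCF-type motifs share the HMG box and are the DNA words of the Wnt effectors that iCRT14 acts on. They followed another course than Sox4(HMG), but this did not hold alike for all Sox motifs. Over the 16 group means r with Sox4(HMG) was 0.541 for Tcf3(HMG), 0.455 for Tcf4(HMG) and 0.257 for TCFL2(HMG). Of the 7 Sox motifs, Sox2(HMG) had the highest r with each, at 0.743, 0.743 and 0.605. For Sox9(HMG) the values were 0.328, 0.128 and -0.175, below those of Sox4(HMG). Sox2(HMG) was also higher in untreated head than in foot tips at 8 h and 12 h. At 8 h all 3 TCF-type motifs were higher in untreated head than in foot tips, by 3.44, 5.90 and 4.17, whereas Sox4(HMG) was lower. The per-library score of Sox4(HMG) minus each of them differed between the sides by -5.54 for Tcf3(HMG), -7.99 for Tcf4(HMG) and -6.27 for TCFL2(HMG) at 8 h (n = 5 against 5). At 12 h it differed by -2.68, -4.56 and -4.43. Each of the 6 tests gave p = 0.00794 in a two-sided exact permutation test, and 0.00794 after adjustment over the 6. This is the smallest value these group sizes allow. At 8 h the tests with Tcf3(HMG) and Tcf4(HMG) could not come out otherwise. The sides did not overlap there in Sox4(HMG) or in these motifs, and the signs were opposite, so these tests add nothing. All 6 tests treated libraries as unpaired, although at 12 h the replicate numbers pair head and foot libraries. A paired test of these differences was not run. At 12 h Sox4(HMG) was itself 1.33 higher in head tips, but Tcf3(HMG) was higher by 4.00 and Tcf4(HMG) by 5.88. Of the 332 motifs, Tcf4(HMG) ranked 1 at 8 h and 2 at 12 h in head minus foot. Motifs other than Sox4(HMG) were not tested in this way, so the tests do not single it out.

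The late rise in head tips was also larger for Sox4(HMG) than for the TCF-type motifs, in comparisons added after seeing the data. From 8 h to 12 h the difference Sox4(HMG) minus Tcf3(HMG) rose by 4.44 in untreated head tips, that to Tcf4(HMG) by 2.83 and that to TCFL2(HMG) by 2.44. The exact permutation p-values were 0.00794, 0.0317 and 0.0238, and 0.0476 each after adjustment over 6 tests. For iCRT14 against untreated head tips at 12 h the differences of Sox4(HMG) minus Tcf3(HMG), Tcf4(HMG) and TCFL2(HMG) were -2.36, -1.59 and -2.41. Their adjusted exact permutation p-values were 0.0571, 0.206 and 0.0476, so that the loss of Sox4(HMG) was larger than that of TCFL2(HMG) by this test. With scores scaled per library, the Tcf4(HMG) comparison between 8 h and 12 h and the TCFL2(HMG) comparison in iCRT14 no longer passed.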

How the data were processed

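Deviation scores of 332 motifs in 71 ATAC-seq libraries, and in the 36 untreated ones alone, were used as the authors deposited them. Per the file headers the scores carry Homer motif names and come from shifted alignments. The tool and scale behind the scores, and whether replicates are separate cultures, are not given in the sources used here, so p-values measure the spread between these libraries. Read counts in 115968 peaks, as deposited by the authors, gave only the depth per library. Its smallest count was 1. The submitters' processing notes name Trimmomatic 0.36, Bowtie2 2.2.6, Picard 2.17.8, SAMtools 1.2, deepTools 3.3.1 and DiffBind.

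Scores were fitted with limma 3.58.1 in R 4.3.3 on all 16 groups and all motifs, with Benjamini-Hochberg adjustment over the motifs of each of 43 comparisons. Exact permutation tests used SciPy 1.17.1 in Python 3.11.15 and treated libraries as unpaired. The fit was tested on simulated data. By the rule used for naming, Sox4(HMG) is given in every comparison, the other Sox motifs by their group means and, in each comparison, the count called and the called member with the largest difference. Other motifs named are the remaining HMG motifs, composites holding Sox, and the 5 most and 2 least like Sox4(HMG). Per-library values and tests of further Sox motifs were chosen after their values were seen. The motifs, comparisons and lists were chosen with earlier results of these data known. Replicates of a group differed beyond counting noise in all 126 pairs (chi-square per degree of freedom 1.94 to 12.4). Replicate numbers were taken to pair libraries where every pair's deviations correlated above 0.1, which held in 3 of 8 head against foot comparisons and in 0 of 28 others. Alternatives were scaled scores, ranks, depth as a covariate, robust variance, the untreated table, fits of the compared groups alone with and without the replicate block, and leaving out each library. Library columns left unused numbered 0. Motif sequences, a genome and the RNA libraries were not used here.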

Additional observations from a re-analysis of the deposited data

Results flagged for a closer look

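A library stood far from the rest of its group in 8 of 98 combinations of motif and group tested. About 4.9 would be expected at 1 in 20 if these were independent. The motifs share peaks, so they are not independent, and nothing is read from the count. For Sox3(HMG), untreated foot replicate 4 at 0 h scored 0.276, against 0.646 to 0.738 in the others, and iCRT14 head replicate 4 at 3 h scored -2.37, against -1.46 to -1.27. For Sox6(HMG), iCRT14 head replicate 4 at 3 h scored -0.129, against 0.996 to 1.16, and iCRT14 foot replicate 2 at 0 h scored -1.24, against -0.0874 to 0.0118. For Sox9(HMG), iCRT14 head replicate 1 scored 1.66 at 0 h, against 0.711 to 0.859, and another replicate 1 scored 1.80 at 12 h, against -0.212 to -0.0691. For Sox10(HMG), untreated head replicate 3 at 12 h scored 2.53, against 1.75 to 1.93, and iCRT14 head replicate 5 at 8 h scored 0.562, against -2.15 to -1.50.

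The side difference changed from 0 h to 8 h in untreated tips by 2.31 for Sox2(HMG), -2.44 for Sox6(HMG), -1.39 for Sox10(HMG) and -1.77 for Sox15(HMG), each by the test of the difference itself. From 0 h to 12 h it changed by 2.98 for Sox2(HMG) and 2.27 for Sox4(HMG). The response to iCRT14 at 12 h differed between the sides by -2.35 for Sox4(HMG).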

How the results depend on the processing

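With robust variance all counts and values kept their direction and side of the threshold. The number of the 7 Sox motifs called moved by more than 1.5 times in the following cases, and the cause was not tested. With ranks per library it became 2 (from 1) between untreated sides at 0 h and 1 (from 3) at 12 h, 4 (from 1) for 12 h against 0 h in iCRT14 foot tips, 3 (from 6) for 8 h against 3 h in iCRT14 head tips, 1 for iCRT14 at 3 h in head (from 2) and foot tips (from 3), 1 (from 2) for side by time at 12 h, and for side by iCRT14 3 (from 0) at 8 h and 0 (from 1) at 12 h. With scaled scores it became 3 (from 1) for 12 h against 0 h in iCRT14 foot tips and 3 (from 1) for side by iCRT14 at 12 h. With depth as a covariate it became 1 (from 2) for 12 h against 8 h in untreated foot tips, 1 (from 3) in iCRT14 head tips, 1 (from 2) for iCRT14 in head tips at 3 h and 2 (from 1) for side by iCRT14 at 12 h. In the untreated table it became 2 (from 1) between the sides at 0 h.

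With only the compared groups fitted the count became 2 (from 1) between untreated sides at 0 h, 1 (from 4) between iCRT14 sides at 12 h, 2 (from 6) and 0 (from 3) in the iCRT14 head steps to 8 h and 12 h, and 1 for iCRT14 in head tips at 3 h (from 2) and 8 h (from 4). With the replicate block added, these counts were 3, 2, 2, 1, 1 and 1. The block also gave 1 (from 0) between iCRT14 sides at 0 h and at 8 h, and 2 (from 5) for the untreated head step from 3 h to 8 h. Where the numbers pair the libraries, the block left the 12 h untreated side calls as they were. Elsewhere a pair of libraries with the same number fell short of the bound of 0.1. In untreated head against foot tips the median correlation of such pairs was still 0.393 at 3 h and 0.435 at 8 h.

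Sox4(HMG) reversed its sign only in differences that had not passed the test. The 8 h against 0 h difference in untreated head tips became -0.000573 with scaled scores and -3.40 ranks. The iCRT14 difference at 3 h became 0.521 in head and 0.487 in foot tips with depth as a covariate, and 0.176 in foot tips with the block. Side by iCRT14 became -0.0142 at 0 h and -0.0103 at 3 h with scaled scores, and -0.0483 at 3 h with the block. Scaled scores gave 1.91 for Sox4(HMG) minus Tcf4(HMG) from 8 h to 12 h (exact permutation, adjusted p = 0.0635) and -1.36 for Sox4(HMG) minus TCFL2(HMG) in iCRT14 (adjusted p = 0.0714).

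Leaving out single libraries gave counts of 0 to 1 between iCRT14 sides at 8 h and 2 to 4 at 12 h, 1 to 3 for 12 h against 0 h in iCRT14 foot tips, 1 to 4 for the iCRT14 head step to 12 h, 1 to 2 and 1 to 3 for iCRT14 in head and foot tips at 3 h, and 0 to 1 and 1 to 2 for side by iCRT14 at 8 h and 12 h. Sox4(HMG) ranged from -0.0951 to 0.194 for 8 h against 0 h in untreated head tips, from -0.289 to 0.184 for iCRT14 in head tips at 3 h, from -0.190 to 0.283 for side by time at 3 h, and for side by iCRT14 from -0.164 to 0.697 at 0 h and from -0.159 to 0.314 at 3 h.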

Other observations

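A pair of composite motifs holds a Sox word beside a POU word, the DNA word of Oct factors that act with Sox factors in mammalian stem cells. Oct4:Sox17(POU,Homeobox,HMG) was lower in untreated head than in foot tips at 8 h, with means of -0.735 and 1.69 (difference -2.42, limma, adjusted p = 8.92e-06). It was still lower at 12 h, with means of 0.791 and 2.72 (difference -1.93, adjusted p = 3.10e-04), when Sox4(HMG) was higher in head tips in the fit of all libraries. That Sox4(HMG) difference did not pass when the untreated libraries were scored among themselves or with ranks within a library. OCT4-SOX2-TCF-NANOG(POU,Homeobox,HMG) was lower in head tips at 8 h (difference -1.37, adjusted p = 4.35e-05). In untreated foot tips it rose by 2.31 from 3 h to 8 h (adjusted p = 1.11e-08), and its difference from 8 h to 12 h was -2.12 (adjusted p = 3.85e-08). At 12 h in foot tips it was 1.55 higher in iCRT14 (adjusted p = 1.01e-05), whereas Oct4:Sox17(POU,Homeobox,HMG) was lower (difference -1.35, adjusted p = 0.0123).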
